A study of Mus musculus with 3 samples.

Results

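The quantity described is the change of the response to DB818 between 6 and 24 h in MigA9 cells, for each gene the log2 ratio of treated to untreated cells at 24 h minus the same ratio at 6 h. MigA9 is a mouse hematopoietic line that Hoxa9, a homeobox transcription factor, has transformed, grown with GM-CSF-conditioned medium, and both channels of every array came from it. RNA of cells kept 6, 12 or 24 h in 2.5 µM DB818 (Cy5) was hybridised against untreated cells (Cy3) on 1 two-colour Agilent array per time, with no dye swap. Array features entered if they were not controls and were well above background in both channels of the 6 and 24 h arrays. This held for 16373 of 41534 features (39.4%), which belong to 11115 of 27389 genes, and after outlier and saturated features were left out 11073 genes had a change.

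HOXA9 holds myeloid progenitors in a dividing, undifferentiated state, and DB818 is a small molecule made to bind the minor groove of DNA and keep HOXA9 off its sites. Myeloid progenitors that mature toward neutrophils make primary granule proteins first and the proteins of later granules and the cytosolic calprotectin afterwards, while the monocyte branch makes its own receptors and secreted factors. Genes induced at low oxygen, among them those of glycolysis, are driven by HIF transcription factors, whose binding sites hold the core ACGTG.

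No time was repeated, so a change is a difference of 2 arrays with no replicate check, and sizes are given with no test. A dye bias of a probe that is the same on both arrays cancels in the change. With no dye swap it stays in the ratio at 1 time. On which side of 1 a ratio lies at 1 time cannot be told apart from such a bias. A rise or a fall means below a change of the ratio of at least 1.3-fold (0.38 on the log2 scale) unless another size is named. The change had an SD of 0.0585 between repeated spots of 1 probe (21 probes), which covers spotting and scanning only, and different probes of 1 gene differed by a median of 0.10 (3850 genes). Over all genes the change had a median of 0.00 and an SD of 0.14, and its central 95% lay between -0.25 and 0.28.

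Rises were seen in 101 genes (0.912%) and falls in 59 (0.533%). At 1.5-fold there were 26 rises (0.235%) and 15 falls (0.135%), and at 2-fold 3 rises (0.0271%), of Csn1s2a, Gsn and Bnip3, and 2 falls (0.0181%), of Lmnb1 and Spp1. Rises made up 63.1% of the changes of at least 1.3-fold, and 77.0% when arrays were centred on the median in place of loess. The genes at both ends of the change came to it by different routes. For most, the ratio was near 1 at 6 h and moved away from it by 24 h, and for others a ratio far from 1 at 6 h was near 1 at 24 h.

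**Figure D1:**
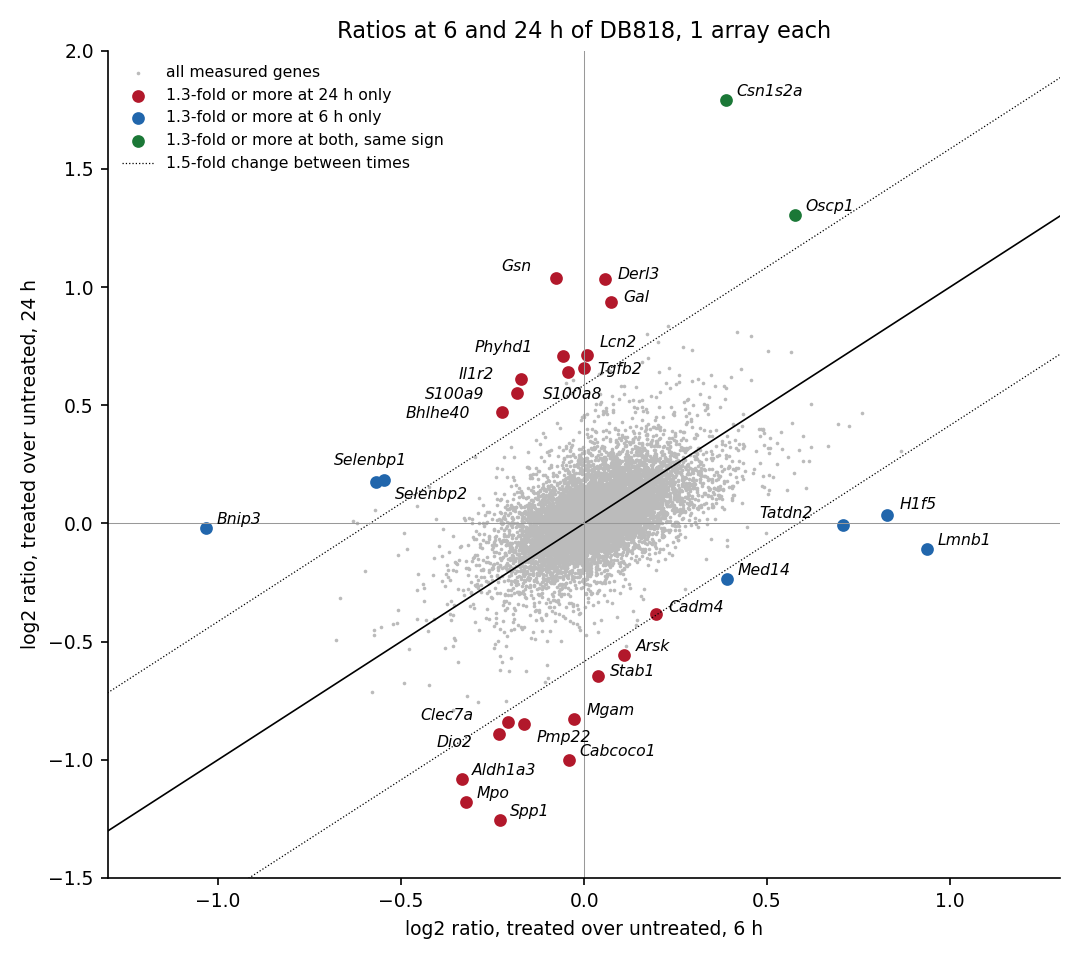
Log2 ratio of treated to untreated cells on the 6 h array (horizontal) and the 24 h array (vertical), 1 point per gene, with the 15 highest and 15 lowest changes among established symbols with probes of 1 sign named; the solid line marks equal ratios and dotted lines a 1.5-fold change. Csn1s2a and Oscp1 were 1.3-fold or more above 1 at both times, and Bnip3, Selenbp1 and Selenbp2 were far below 1 at 6 h only.

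Of the 101 rises, 61 were late (1.3-fold or more from 1 at 24 h and not at 6 h), 11 had faded (1.3-fold or more from 1 at 6 h and not at 24 h), 3 were that far on the same side at both times and 26 at neither. Of the 59 falls, 35 were late, 12 had faded and 12 were past 1.3-fold at neither time. In 0 genes did a ratio stand 1.3-fold or more on opposite sides of 1 at the 2 times. These classes use the ratio at each time, in which a dye bias of a probe does not cancel.

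The 12 h array placed the moves in time. By 12 h the late rises had covered a median of 0.459 of their change and the late falls 0.525, whereas the faded rises had covered 1.01 and the faded falls 0.771. Of the 26 rises of at least 1.5-fold, 19 had covered between 0.2 and 0.8 of the change by 12 h, 6 more than 0.8 and 1, Rtp4, an interferon-induced chaperone of receptors, less than 0.2. All 6 that were past 0.8 by 12 h were faded ones: Bnip3, Selenbp1, Selenbp2, Ankrd37, Dhrs11 and Rmrp. Among the 15 falls of that size 10 had covered 0.2 to 0.8, 2 (H1f5 and Tatdn2) more, and 3 (Cabcoco1, Arsk and Csnk2a2) less. Csnk2a2, a catalytic subunit of casein kinase 2, rests on a pair of probes that disagree, at -1.28 and 0.00. Several of these genes were named after their values were seen.

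**Figure D2:**
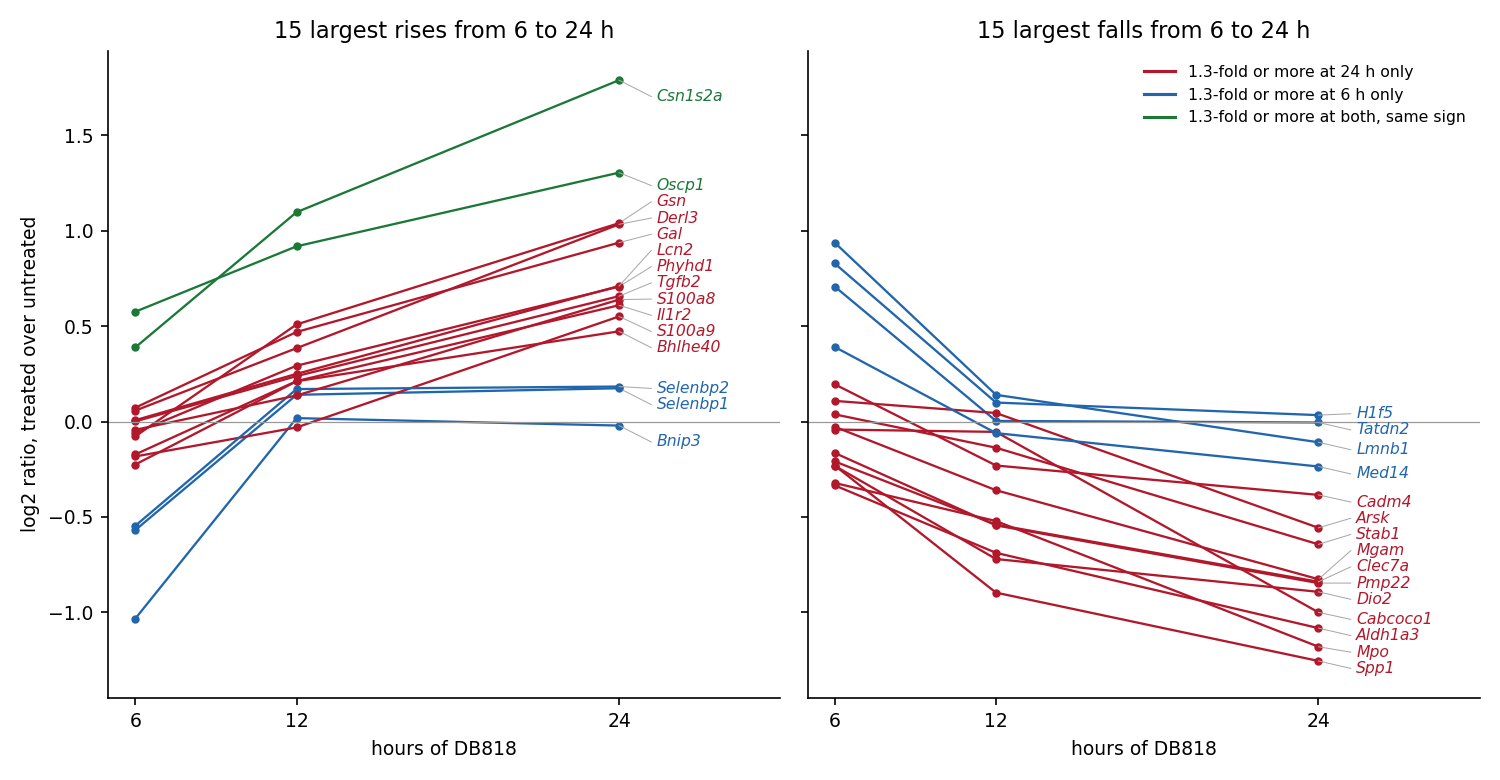
Log2 ratio of treated to untreated cells at 6, 12 and 24 h (1 array each) for the 15 highest changes (left) and the 15 lowest (right), 1 line per gene, coloured by the times at which the ratio was 1.3-fold or more from 1. Faded genes (blue) had moved most of the way by 12 h, while Cabcoco1 and Arsk moved between 12 and 24 h.

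The highest changes were those of a milk protein and of gelsolin. Csn1s2a, a casein of milk, had ratios of 0.39, 1.1 and 1.79 at 6, 12 and 24 h. Its treated signal was thus 1.31-fold the untreated one at 6 h and 3.46-fold at 24 h. Its change of 1.40 (2.64-fold) was the highest of all measured genes with the background offset of 50. Csn2, the beta-casein gene, was saturated in the treated channel at 24 h and its ratio rose at least 1.48-fold, with log2 ratios as measured of 0.02 and 0.58. Of 10 listed milk protein genes, Csn1s2a alone passed the filter on background and saturation.

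Gsn, the actin-severing protein gelsolin, stood at -0.08, 0.51 and 1.04, a change of 1.12. It was the 1 rise among 18 measured actin severing and cytoskeleton genes, whose median change was 0.05. Derl3, a Derlin that takes part in the removal of misfolded proteins from the endoplasmic reticulum, stood at 0.06, 0.38 and 1.03. Gal, the neuropeptide galanin, went from 0.07 over 0.47 to 0.94, and Tgfb2, a transforming growth factor, from 0.00 over 0.24 to 0.66. Each of these ratios was higher at each later time. Gal and Tgfb2 were dim at 6 h, with treated log2 levels of 6.94 and 6.49. Over the alternative settings the change of Gal ran from 0.84 to 1.51 and that of Tgfb2 from 0.64 to 1.18. How far the background offset drew their 6 h ratios toward 1 was not tested.

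Oscp1, the organic solute carrier partner, resembled Csn1s2a in that its ratio was already up at 6 h, with 0.58, 0.92 and 1.31 (change 0.73). The gene Phyhd1, for a phytanoyl-CoA dioxygenase-like enzyme, had ratios of -0.06, 0.29 and 0.71.

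Neutrophil genes were among the late rises. S100a8 and S100a9 encode the subunits of calprotectin, which neutrophils carry in their cytosol. S100a8 had ratios of -0.04, 0.14 and 0.64, and S100a9 of -0.18, -0.03 and 0.55, so that most of both changes fell after 12 h. Lcn2, the iron-siderophore carrier lipocalin 2 of specific granules, stood at 0.01, 0.25 and 0.71. Il1r2, a decoy receptor for interleukin 1, stood at -0.17, 0.21 and 0.61, and its probes gave changes of 0.63 and 0.93.

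Bhlhe40, a transcriptional repressor that hypoxia induces, was at -0.23, 0.21 and 0.47. It was the 1 late gene among the rises of the hypoxia list described below.

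Faded rises were genes whose ratio was below 1 at 6 h and near or above 1 from 12 h on. Bnip3, a mitophagy receptor induced by hypoxia, had ratios of -1.03, 0.02 and -0.02, with a treated signal 2.05-fold below the untreated one at 6 h. Selenbp1, a methanethiol oxidase, stood at -0.57, 0.14 and 0.17, and its paralog Selenbp2 at -0.55, 0.17 and 0.18. Ankrd37, an ankyrin-repeat protein gene induced by HIF, stood at -0.57, -0.01 and 0.06. Selenbp1 and Selenbp2 are close copies, and whether their probes tell them apart was not tested.

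The 250 bases before the start of these 4 genes are shown because 5 of the 8 genes of the hypoxia list that rose, Bnip3, Selenbp1, Selenbp2 and Ankrd37 among them, were among the 26 rises of at least 1.5-fold. The sequences are those of RefSeq (GRCm38.p6), 5′ to 3′ on the strand of the gene, with each match to ACGTG on either strand in capitals. Bnip3 lies on the minus strand at chr7:138909507-138909756, Ankrd37 on the minus strand at chr8:45999851-46000100, Selenbp1 on the plus strand at chr3:94932833-94933082 and Selenbp2 on the plus strand at chr3:94693323-94693572.
Bnip3: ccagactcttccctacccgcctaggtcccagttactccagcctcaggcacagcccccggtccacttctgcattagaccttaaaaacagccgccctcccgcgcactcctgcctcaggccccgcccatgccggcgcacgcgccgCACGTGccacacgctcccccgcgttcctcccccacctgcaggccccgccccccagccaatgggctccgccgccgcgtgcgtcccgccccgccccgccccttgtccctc
Ankrd37: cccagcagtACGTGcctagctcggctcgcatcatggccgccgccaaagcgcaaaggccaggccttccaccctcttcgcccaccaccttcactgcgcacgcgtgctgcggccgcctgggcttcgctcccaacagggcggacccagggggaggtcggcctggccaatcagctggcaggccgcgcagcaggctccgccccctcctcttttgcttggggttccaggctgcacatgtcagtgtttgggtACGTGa
Selenbp1: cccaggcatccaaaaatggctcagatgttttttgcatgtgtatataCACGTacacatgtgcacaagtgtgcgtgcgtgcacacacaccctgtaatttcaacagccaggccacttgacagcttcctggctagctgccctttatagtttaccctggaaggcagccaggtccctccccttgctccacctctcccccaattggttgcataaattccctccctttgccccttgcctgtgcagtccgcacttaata
Selenbp2: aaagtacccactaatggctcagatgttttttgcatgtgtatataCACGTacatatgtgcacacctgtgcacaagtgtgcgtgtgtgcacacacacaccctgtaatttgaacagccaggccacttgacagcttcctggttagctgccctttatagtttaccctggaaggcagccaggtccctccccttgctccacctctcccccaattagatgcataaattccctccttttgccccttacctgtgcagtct

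In Bnip3 the matches begin at -108 and -107, counted from the start of transcription, and are both strands of 1 CACGTG. Ankrd37 holds matches at -241 and -6, Selenbp1 at -204 and Selenbp2 at -206. The windows of Selenbp1 and Selenbp2 were identical at 225 of 250 bases (90%) when aligned.

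Over the full windows of 300 bases, 33 of the 46 hypoxia and glycolysis genes with a window (71.7%) held ACGTG, against 2461 of 7983 measured genes (30.8%). Those lists were drawn largely from genes known as HIF targets, some through this motif, with Selenbp1 and Selenbp2 added and with earlier results of these data known, so the share only describes the lists. Among genes that changed at least 1.5-fold, 7 of 20 rises (35%) and 5 of 13 falls (38.5%) held it. The STAT motif TTCNNNGAA was in 3 of 20 rises (15%), in 0 of 13 falls and in 8.31% of all genes. TGATTTAT and TGATTTAC, which HOXA9 binds with a cofactor, were in 0 windows of either group and in 0.438 and 0.514% of genes. The AP-1 motif TGACTCA was in 1 of 20 rises (5%), in 0 of 13 falls and in 4.43% of genes. CACGTG, which contains ACGTG, was in 4 of 20 rises (20%), in 2 of 13 falls (15.4%) and in 12.5% of genes. Motifs were searched on both strands, and a match is no evidence of binding.

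Late falls included a granule enzyme and several macrophage products. Mpo, the myeloperoxidase of primary granules, had ratios of -0.32, -0.52 and -1.18, with a treated signal 2.27-fold below the untreated one at 24 h. Spp1, the secreted matrix protein osteopontin, stood at -0.23, -0.90 and -1.26. Clec7a, the beta-glucan receptor dectin-1, stood at -0.21, -0.54 and -0.84, and Stab1, a scavenger receptor, at 0.04, -0.14 and -0.64.

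Other late falls belong to enzymes and membrane proteins with no common list. The maltase-glucoamylase gene Mgam had ratios of -0.03, -0.36 and -0.83, with changes of -0.91 and -0.69 at its probes. Aldh1a3, which makes retinoic acid, stood at -0.33, -0.69 and -1.08, and Dio2, which activates thyroid hormone, at -0.23, -0.72 and -0.89. Pmp22, a tetraspan membrane protein of myelin, had ratios of -0.16, -0.54 and -0.85. All 4 were lower at each later time.

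Cabcoco1, a calcium-binding coiled-coil protein of cilia, and Arsk, a lysosomal sulfatase, differed from these in timing. Cabcoco1 stood at -0.04, -0.05 and -1.0 and Arsk at 0.11, 0.04 and -0.56, so that nearly all of the change came after 12 h. Cadm4, a cell adhesion molecule, was at 0.20, -0.23 and -0.38, and with a change of -0.58 lay just under 1.5-fold. These are dim genes, whose sizes moved with the background correction and the channel used: over the alternative settings Cabcoco1 ran from -2.76 to -0.16, Arsk from -1.61 to -0.09, Stab1 from -1.82 to -0.23 and Cadm4 from -1.85 to -0.04.

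Faded falls were genes whose ratio was above 1 at 6 h. Lmnb1, the nuclear lamin B1, had ratios of 0.94, 0.14 and -0.11, a change of -1.05, the lowest of all measured genes with the background offset of 50. Dim genes lay below it under other background corrections, as Cabcoco1 did. It was the 1 gene past 1.3-fold among 17 measured lamin and nuclear envelope genes, whose median change was -0.06. The linker histone H1f5 stood at 0.83, 0.10 and 0.03. Tatdn2, of the TatD nuclease family, stood at 0.71, 0.00 and -0.01, and Med14, a backbone subunit of the Mediator complex, at 0.39, -0.06 and -0.24. Med14 is dim, and its change ran from -1.58 to 0.17 over the alternative settings. Lmnb1, H1f5, Tatdn2 and Med14 had each covered more than 0.7 of the change by 12 h.

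Each change of a ratio was split into the change of the treated and of the untreated channel between the arrays. The levels of the channels are log2 intensities set on a common scale over arrays. The labels do not say whether the untreated RNA was 1 preparation used on every array or came from a culture kept as long as the treated one. A difference between untreated cells and a difference between arrays cannot be told apart here. The treated channel had the larger change in 106 of the 160 genes past 1.3-fold, and in 6209 of all 11073.

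Late rises lay mainly in treated cells, with a median treated change of 0.57 and a median untreated change of 0.10 over the 61 genes, and the treated change was the larger in 51. Gsn had treated levels of 11.02, 11.92 and 12.87 at 6, 12 and 24 h and untreated levels of 11.10, 11.41 and 11.82, so that it was higher at later times in both channels. Csn1s2a went from 9.38 over 9.88 to 10.72 in treated cells, and stayed between 8.78 and 8.99 in untreated cells.

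Faded rises lay mainly in untreated cells, with a median treated change of -0.02 and a median untreated change of -0.46 over 11 genes. The treated change was the larger in 2 of them, such as Rmrp (0.39 treated, -0.24 untreated). Selenbp1 (0.34 and -0.40) and Selenbp2 (0.36 and -0.37) were split about evenly. Bnip3 had untreated levels of 10.23, 8.72 and 9.20 and treated levels of 9.20, 8.74 and 9.18. The untreated level was high on the 6 h array, and the treated levels at 6 and 24 h differed by 0.02. In Ankrd37 both channels were lower at 24 h, by 1.78 in untreated cells (from 8.77 to 6.99) and by 1.16 in treated ones (from 8.20 to 7.04).

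**Figure D3:**
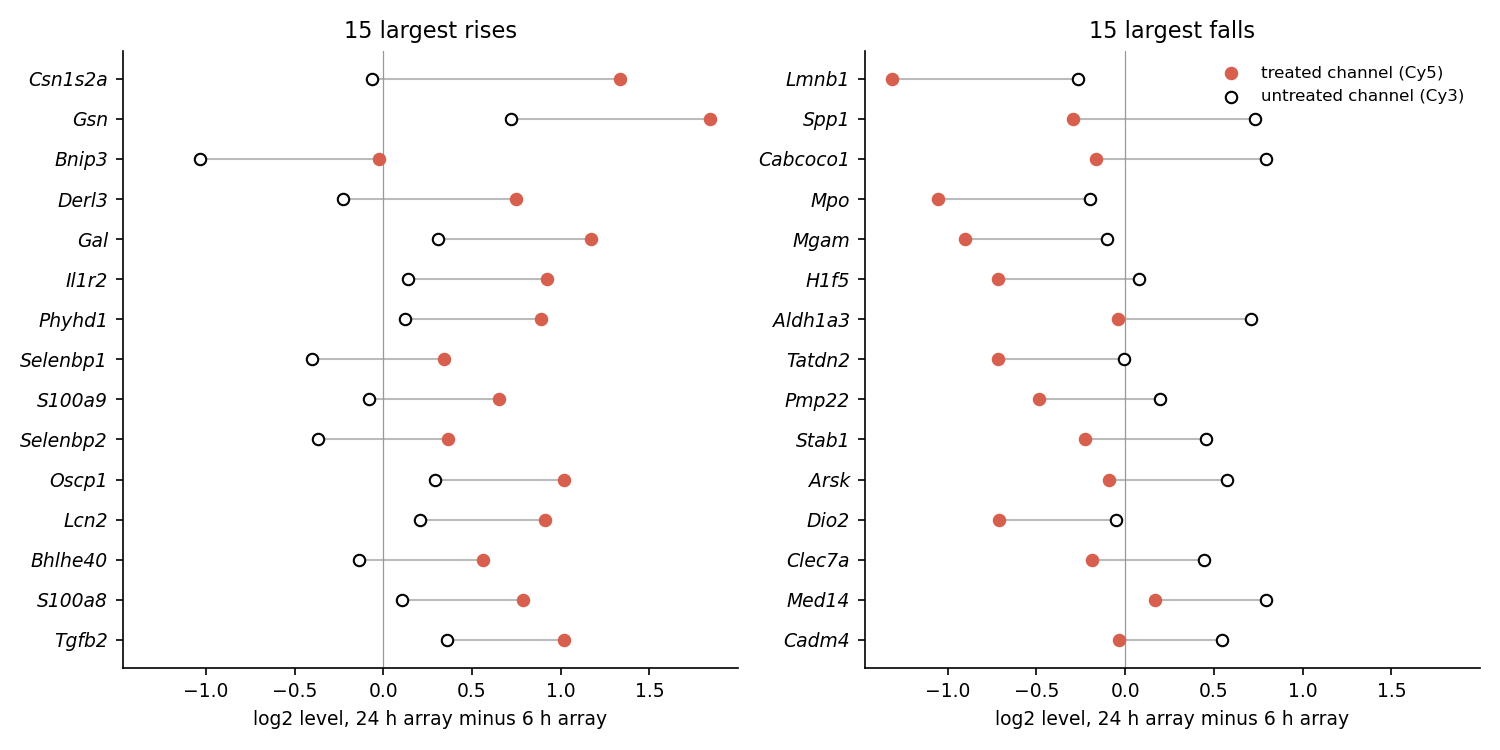
Change of the log2 level from the 6 h array to the 24 h array in the treated (filled) and untreated channel (open) for the 15 highest (left) and 15 lowest changes (right); the length of the line is the size of the change of the ratio. The treated channel changed more in 12 of the 15 highest and 7 of the 15 lowest, and the exceptions at the high end are Bnip3, Selenbp1 and Selenbp2.

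Falls were split between the channels. Over the 35 late falls the median treated change was -0.28 and the median untreated change 0.27, and the treated change was the larger in 17. Mpo lay in the treated channel, with levels of 13.12, 12.93 and 12.06 against untreated levels of 13.44, 13.45 and 13.24. Spp1 lay mainly in the untreated one, with untreated levels of 8.72, 9.20 and 9.45 against treated levels of 8.49, 8.30 and 8.20. Cabcoco1, Aldh1a3, Arsk, Clec7a, Stab1 and Cadm4 resembled Spp1, with untreated changes between 0.44 and 0.80 and treated changes between -0.23 and -0.04. Treated levels at 6 and 24 h were low for Cabcoco1 (6.16 and 6.00), Cadm4 (6.17 and 6.14), Arsk (6.45 and 6.36) and Stab1 (6.68 and 6.46). How far the background offset limited a fall in these dim channels was not tested, so their split between the channels is not settled.

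Over the 12 faded falls the median treated change was -0.37 and the median untreated change 0.10. The treated change was the larger in 8 of 12, near the share of all genes past 1.3-fold (106 of 160). Lmnb1 had treated levels of 11.27, 10.49 and 9.96 and untreated levels of 10.34, 10.35 and 10.07. Its treated level was high on the 6 h array, as were those of H1f5 (9.18, 8.79 and 8.46) and Tatdn2 (8.18, 7.70 and 7.46). Med14 differed from them: its untreated level was 0.79 higher at 24 h and its treated level 0.17 higher.

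Gene lists showed which functions shared a direction. Counts below are of members above and below 0, to be read beside 5548 and 5525 of all genes. Counts by channel are to be read beside all 11073 genes, of which 5998 were lower and 5075 higher at 24 h in the untreated channel, and 5910 lower and 5163 higher in the treated one. In bulk RNA, fewer cells of a type and less RNA per cell cannot be told apart.

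Of 30 hypoxia-induced genes outside glycolysis, 29 had a change above 0, 8 rose, 0 fell, and the median change was 0.20. At 6 h the ratio was below 1 in 28 of them and at 24 h in 16, with median ratios of -0.23 and -0.01, while over all 11073 genes it was below 1 in 4387 and 4367. The other rises on the list were Ndrg1 (0.58), P4ha2 (0.53), a collagen prolyl hydroxylase, and Egln3 (0.40), an oxygen-sensing HIF prolyl hydroxylase. Gbe1, the glycogen branching enzyme, was the member below 0, at -0.13. Selenbp1 and Selenbp2 are not commonly used hypoxia genes. Without them 27 of 28 were above 0, 6 rose and the median was 0.15.

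The untreated level was lower on the 24 h array in 26 of the 30 (median -0.27), while the treated level was lower in 18 and higher in 12 (median -0.02). Ddit4, an inhibitor of mTORC1 that stress induces, had a nearly even ratio at 6 and 24 h (0.01 and 0.13). Its untreated level went from 10.66 to 8.79 and its treated level from 10.67 to 8.92. The untreated level of Hif1a itself changed by -0.09 and its ratio by 0.09.

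Glycolysis gave a like picture in the ratio, with 19 of 21 genes above 0, 3 rises, 0 falls and a median of 0.20. Slc2a1, the glucose transporter GLUT1, had ratios of -0.07, 0.44 and 0.42. Aldoc, aldolase C, stood at -0.13, 0.23 and 0.35, and Slc16a3, the lactate exporter MCT4, at -0.40, 0.12 and 0.02. Tpi1, triosephosphate isomerase, stayed below 1 at every time (-0.51, -0.11 and -0.14). The median ratio of the list was -0.17 at 6 h and 0.00 at 24 h. The untreated level was lower at 24 h in 16 of 21 (median -0.15). Unlike in the hypoxia list, the treated level was higher in most, 14 of 21 (median 0.04). For Slc2a1 and Slc16a3 the untreated channel was lower at 24 h, by 0.61 and 0.46, and the treated one by 0.11 and 0.04, whereas Aldoc was higher at 24 h in both.

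**Figure D4:**
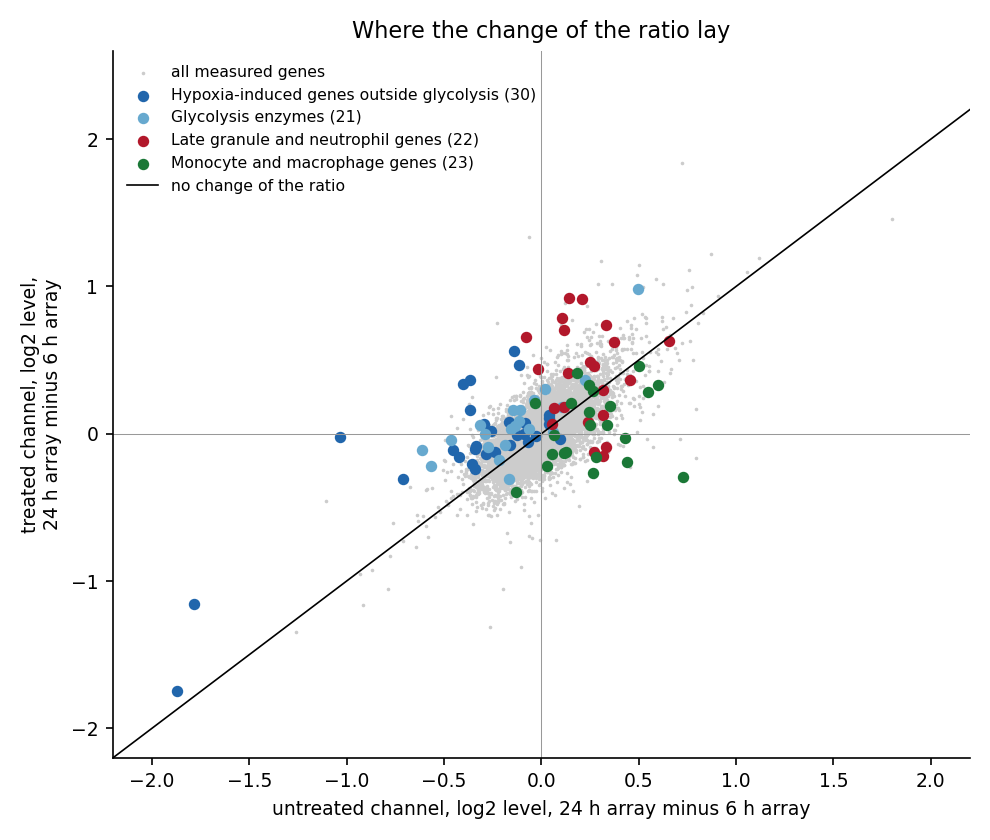
Change of the untreated (horizontal) and treated level (vertical) from the 6 h to the 24 h array, log2, for all measured genes and members of 4 lists; genes above the diagonal line have a higher ratio at 24 h. Hypoxia genes lie above the line mostly to the left of 0, late granule and neutrophil genes above it to the right, and monocyte genes mostly below it to the right.

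Late granule and neutrophil genes had 14 of 22 members above 0 and a median change of 0.15, with 7 rises and 3 falls. Beside S100a8, S100a9, Lcn2 and Il1r2 the rises were Ltb4r1, a leukotriene B4 receptor (0.59), Pglyrp1, a granule protein that binds peptidoglycan (0.46), and lactoferrin, Ltf (0.41). Falls were those of Mgst1 (-0.47), Slpi (-0.42), a protease inhibitor, and the collagenase Mmp8 (-0.39), so the list did not move as one. Both channels were higher at 24 h in most members, in 19 of 22 for treated and 20 of 22 for untreated cells, with medians of 0.43 and 0.25.

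The list of primary granule proteins went the other way, with 3 of 17 members above 0 and 14 below, a median of -0.15, and 1 fall, that of Mpo. Plac8, at -0.37, and Serpinb1a, an inhibitor of neutrophil serine proteases, at -0.33, came closest to it. The list is mixed, and Nkg7 (-0.30), for example, is also on the lymphoid list. Elane, the neutrophil elastase, and Prtn3, proteinase 3, had low ratios at 6 h (-0.58 and -0.21) and changed by -0.13 and -0.15. The median treated change was -0.17 and the median untreated change 0.00. Ctsg, the cathepsin G gene, gave no ratio because it was saturated.

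Monocyte and macrophage genes had the lowest median of the lists drawn below, -0.24, with 5 of 23 above 0, 18 below and 5 falls. These were Spp1, Clec7a, F13a1 (-0.54), the A subunit of coagulation factor XIII, Ly86 (-0.46), which pairs with a Toll-like receptor homolog, and Clec4n (-0.44), the lectin dectin-2. The untreated level was higher at 24 h in 21 of the 23 (median 0.25), and the treated level in 12 (median 0.06). Csf1r, the receptor of the macrophage growth factor, changed by 0.03.

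Smaller and even shifts ran through other lists. Ribosome biogenesis and Myc had 30 of 33 members below 0 (median -0.13) and 0 rises or falls, with Nolc1 at -0.30 and Mxd1, an antagonist of Myc, at 0.31. Both rest on a pair of probes that differ, at -0.53 and -0.07 for Nolc1 and at 0.04 and 0.57 for Mxd1, and the brightest probe alone put each past 1.3-fold. Proteasome subunits had 22 of 33 below 0 (median -0.06). In both lists most levels were lower at 24 h in both channels. For ribosome biogenesis this held in 30 of 33 for treated and 29 for untreated cells (medians -0.28 and -0.16). For the proteasome it held in 29 and 30 of 33 (medians -0.20 and -0.15). Cytosolic ribosomal proteins had 53 of 61 above 0 (median 0.07). The members of each list share an assembly or process and need not vary independently.

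Interferon response genes had 16 of 18 above 0, a median of 0.13 and 1 rise, of Rtp4 (0.64). Rtp4 was dim at 6 h (treated level 6.31), and its change ran from 0.63 to 1.24 over the alternative settings. ATF4 and amino acid response genes had 17 of 20 above 0, a median of 0.13 and 1 rise, of the pseudokinase Trib3 (0.39), and the untreated level was lower at 24 h in 18 of the 20. Endoplasmic reticulum chaperones and ERAD genes had 22 of 30 above 0, a median of 0.09, and rises of Derl3 and of the ubiquitin ligase Syvn1 (0.39). Hspa5, the chaperone BiP, was at 0.30.

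Among histones, H1f0, the linker histone of resting cells, rose by 0.61 and H2bc4 by 0.44, while H1f5 fell by 0.80. With no filter on dim probes the change of H1f0 was 0.26, short of 1.3-fold. The remaining genes of the 21 measured histones stayed within 1.3-fold. Socs3, the feedback inhibitor of cytokine signalling, was the 1 rise of 20 STAT5 and cytokine feedback genes, at 0.06, 0.43 and 0.47. Stat5a and Stat5b changed by 0.04 and 0.09.

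**Figure D5:**
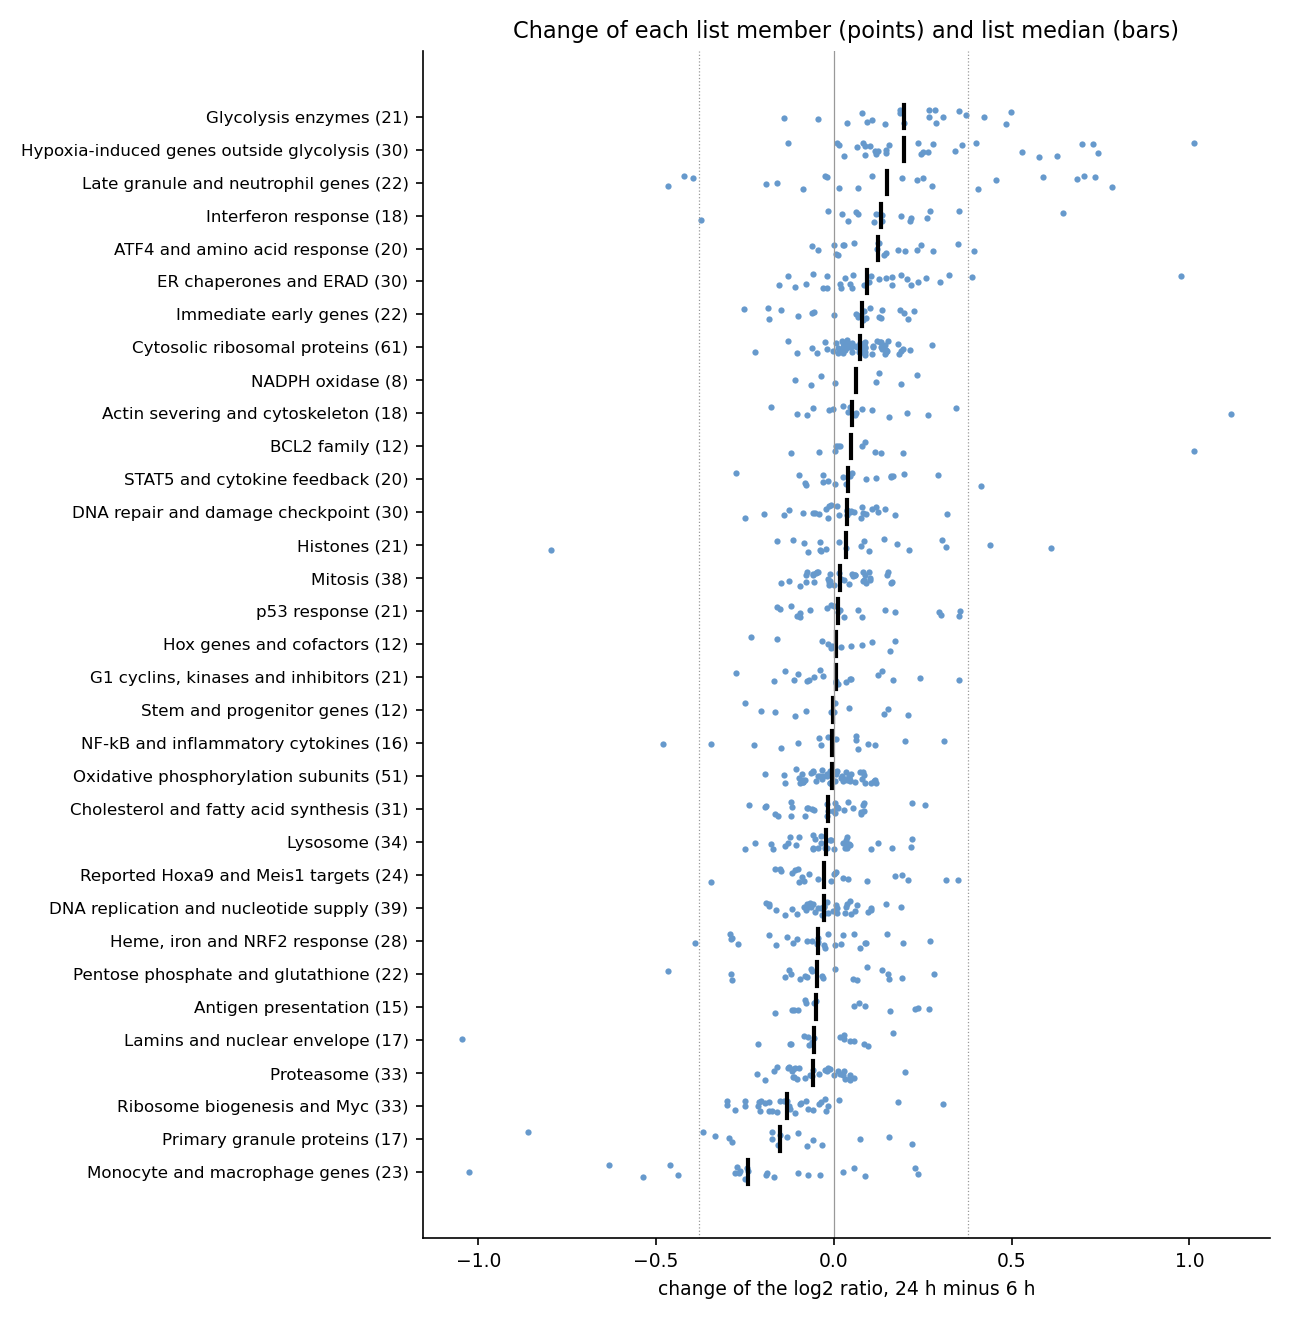
Change of the log2 ratio, 24 h minus 6 h, of each measured member (points, spread vertically for sight) and the median (bars) of the lists with at least 8 measured genes, ordered by median, with the number of genes in brackets; dotted lines mark 1.3-fold. Glycolysis and hypoxia genes have the highest medians and monocyte and macrophage genes the lowest.

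Changes in the cell cycle and HOXA9-linked lists stayed within 1.3-fold in the main processing. Under alternative settings some members passed it: Ddb2 ran from 0.30 to 0.85, Lck from 0.05 to 0.64 and Sox4 from -0.57 to -0.31. Ratios at 24 h were past 1.3-fold for some members, such as Trp53inp1 (0.49), Lck (0.48) and Sox4 (-0.40). Counts and medians that follow are those of the main processing. The 38 mitosis genes (median 0.02), 39 DNA replication genes (-0.03), 21 genes of the G1 phase (0.01), 30 DNA repair genes (0.04), 21 p53 response genes (0.01) and 51 subunits of oxidative phosphorylation (-0.01) gave 0 rises and 0 falls. So did 12 Hox genes and cofactors (0.01), 24 reported targets of Hoxa9 and Meis1 (-0.03) and 12 stem and progenitor genes (0.00). Hoxa9 had ratios of 0.35, 0.21 and 0.11, Myc changed by -0.02, the proliferation marker Mki67 by 0.16 and Actb by -0.06. Cdkn1a, the cell cycle inhibitor p21, was at -0.15, 0.03 and 0.21, and its change of 0.35 lay in the untreated level, which was 0.45 lower at 24 h. Meis1 was not well above background.

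Probes with 1 channel not well above background on 1 of the arrays, or saturated, gave only bounds on the change. The bound is the change that remains when the dim channel is set to the lowest signal well above background, or to its own signal where that is higher, and a saturated one is kept at its value. There were 157 bounds on rises and 167 on falls. Among established symbols the largest for rises were Cfb, complement factor B (at least 1.53-fold), Csn2 and the heat shock protein gene Hspa1a (at least 1.32-fold). For falls they were Iqgap2, a scaffold protein (at least 1.38-fold), the pseudogene Cyp4f41-ps (at least 1.37-fold) and the kinase gene Sik1 (at least 1.31-fold).

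The labelled line was checked against markers in untreated cells. All 5 primary granule markers, 7 of 8 neutrophil and 4 of 6 monocyte markers were well above background on all 3 arrays, as were 2 of 5 mast cell and basophil markers (Mcpt8 and Hdc) and 1 of 4 T cell markers (Lck). None of the erythroid (0 of 4 on the array), megakaryocyte (0 of 3) and B cell markers (0 of 4) were. The ratio of Hdc, histidine decarboxylase, fell by 0.56 and that of Mcpt8, a basophil protease, changed by 0.34, with ratios at 24 h of -0.66 and 0.49. The part of any mixture of cells in the changes was not tested.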

How the data were processed

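RNA of MigA9 cells was measured on 3 two-colour Agilent arrays, 1 per time, treated in Cy5 and untreated in Cy3, per the labels. Per the file headers, the authors used Agilent Feature Extraction, version 9.1.3.1. The deposited scanner files hold foreground and background intensity per channel. The deposited value file holds the log10 ratio of the scanner; its values and those in the scanner files differed by at most 0, and it was not used further.

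Here mean foreground and median background were corrected with normexp (offset 50, which draws ratios of dim genes toward 1), and log2 ratios of the deposited intensity values were fitted by loess, array by array (limma 3.58.1 under R 4.3.3, with version 1.17.8 of data.table). Ratios were not scaled between arrays. Spots of a probe, then probes of a gene, were averaged. Of the features meeting the rule, 28 outliers and 47 saturated ones were left out, which left 16298 features (16111 probes). Both channels were well above background for 40.8, 40.9 and 41.4% of features at 6, 12 and 24 h, and the number of arrays limits the precision. Channel levels come from Aquantile normalisation. Of 41174 probes, 22864 were named through a RefSeq table by accession, 6732 by symbol and 3498 by synonym, and 8080 kept the file's name.

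Named genes were the 15 highest and 15 lowest changes among established symbols measured on all arrays whose probes shared a sign, up to 4 members of each of 38 lists with the largest changes, the 3 largest bounds each way among established symbols, and 11 genes by name, of which Gapdh gave no value. Members and lists were chosen with earlier results of these data known. The computation was tested on simulated data. Alternatives covered background correction, normalisation, scaling, filters, the probe used, the treated channel alone and the limits of timing. Summaries used pandas 2.3.3, numpy 2.4.6 and Python 3.11.15, and figures matplotlib 3.10.9.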

Additional observations from a re-analysis of the deposited data

Results flagged for a closer look

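Of the 163 named genes checked, 9 changed at least 1.3-fold and had ratios on opposite sides of 1 at 6 and 24 h. Each time the ratio was more than 3 SDs of repeated spots from 1 (0.13 at 6 h and 0.14 at 24 h on the log2 scale). Genes with smaller changes, such as Cdkn1a (-0.15 and 0.21, change 0.35), were not counted. With 1 array per time these differences were not tested. Higher at 24 h were Il1r2, whose ratio went from -0.17 to 0.61 (change 0.78), Selenbp1, from -0.57 to 0.17 (0.74), S100a9, from -0.18 to 0.55 (0.73), Selenbp2, from -0.55 to 0.18 (0.73), Bhlhe40, from -0.23 to 0.47 (0.70), and H2bc4, from -0.24 to 0.20 (0.44). Lower at 24 h were Med14, from 0.39 to -0.24 (change -0.63), Cadm4, from 0.20 to -0.38 (-0.58), and Ly86, from 0.15 to -0.31 (-0.46). The spread of repeated spots covers spotting and scanning only. A dye bias of a probe cancels in the change but not in the ratio at 1 time. With no dye swap, it is therefore not settled that the ratios of these 9 genes crossed 1. The named genes were chosen largely for the size of their change, and other genes were not checked. The 9 of 163 is therefore no estimate of the share among all genes.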

How the results depend on the processing

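All 30 named extremes kept their sign under every alternative but the treated channel alone, where 28 did, and all 26 rises and 15 falls of at least 1.5-fold were again past it with plain background subtraction, normexp with offset 0 and Agilent's processed signals. Of those rises and falls, 24 and 9 were past it with no filter on dim probes, 23 and 13 with median centring, 23 and 15 with arrays scaled, 26 and 14 by the brightest probe, and 17 and 7 in the treated channel alone. Of the 30 extremes, 26, 28 and 19 stayed past 1.3-fold with no filter, median centring and the treated channel alone. Counts moved with the offset, as the offset compresses ratios of dim genes. Plain subtraction, offset 0 and Agilent's processed signals lack it, and their changes spread more (SDs over genes of 0.17, 0.22 and 0.25 against 0.14). That the genes past 1.5-fold passed again in these 3 is therefore a weak check. Rises of at least 1.3, 1.5 and 2-fold numbered 247, 55 and 6 with plain subtraction, 466, 124 and 19 with offset 0, 606, 236 and 29 from Agilent's processed signals, 201, 49 and 7 with median centring, and 312, 96 and 14 in the treated channel alone. Falls numbered 157, 41 and 6, then 337, 90 and 13, then 479, 151 and 17 in the first 3 of these and 167, 25 and 7 in the treated channel alone. Falls of at least 2-fold numbered 1 with median centring and 1 with arrays scaled to 1 spread. With timing limits of 0.33 and 0.67, 3 rises of at least 1.5-fold came mostly after 12 h, and the falls divided into 5 after 12 h, 5 steady and 5 done by 12 h. In the treated channel alone the sign turned, among named genes past 1.3-fold, for Bnip3 (-0.023), Med14 (0.17), Slc2a1 (-0.11), Slc16a3 (-0.039) and Trib3 (-0.072), and for the medians, less that of all genes, of the monocyte (0.074), hypoxia (-0.0062) and ATF4 lists (-0.028), since most of those changes lie in the untreated channel. Genes with smaller changes turned there too, such as Hoxa9 (0.066), Bach1 (0.067), Ccl3 (1.46) and Cdkn1a (-0.098). The sign of 16 of the 38 list medians, these 3 included, turned under at least 1 alternative. No paired analysis was possible because each time has 1 array. Depth is set by signal over background, and genes not well above it have only bounds.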

Other observations

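Some genes differed more between the arrays in both channels than in the ratio. Ccl3, a chemokine of activated macrophages, had untreated levels of 7.48, 8.86 and 9.28 and treated levels of 7.73, 9.0 and 9.18 at 6, 12 and 24 h, so that its ratio changed by -0.35 while the untreated level was 1.80 and the treated level 1.46 higher at 24 h. Ccl9, another chemokine, had an untreated level 0.41 higher and a treated level 0.07 lower at 24 h, and its ratio fell by 0.48. Of 16 NF-kB and inflammatory cytokine genes, 13 had a higher level at 24 h in each channel, as did 5163 of all 11073 genes in the treated and 5075 in the untreated one, and the median change of the ratio was -0.01.

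Antigen presentation genes were higher at 24 h in 13 of 15 for treated and 12 of 15 for untreated cells, to be read beside the same 5163 and 5075 of 11073. The class I genes H2-T23, H2-Q7 and H2-D1 changed by 0.27, 0.24 and 0.23, and share sequence, so their probes may not be separate measurements. In the iron list, Tfrc, the transferrin receptor, fell by 0.39 (0.06, -0.32 and -0.33), and Bach1, which heme inactivates as a repressor, had ratios of 0.76, 0.60 and 0.47 and changed by -0.29. Zfpm1, a cofactor of GATA factors, rose by 0.43, to a ratio of 0.66 at 24 h.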
